A study of Mus musculus with 8 samples.

Results

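The genes described here make cholesterol, or sense it and switch its synthesis and uptake on and off: Hmgcs1, Idi1, Fdps, Fdft1, Sqle and Cyp51, which encode enzymes of the pathway, and Insig1 and Srebf2, which encode a sensor protein and the transcription factor it restrains. They were taken by gene symbol from the probe table, and 6 of the 8 genes had a probe under their symbol, among the 18138 symbols of the table. Hmgcs1 and Fdft1 were not analysed here. The cells were primary mouse aortic smooth muscle cells (VSMC), grown out of pieces of several aortas and kept before use in medium whose serum had been treated with dextran-coated charcoal. In the control group they had been transfected with a scrambled oligo, and in the moR-21 group with a moR-21 mimetic, a synthetic copy of the small RNA that lies next to miR-21 in its precursor. Both oligos were at 5 nM and RNA was taken at 48 h. No strain, sex or age is stated for the donor mice, and both groups share the transfection reagent. Each group had 3 samples. Of the 8 arrays, an A and a B array held control sample 1 and another such pair held moR-21 sample 3, and each pair was averaged, which left 6 samples. Nothing states that the 3 samples of a group came from separate cultures, so p-values measure the spread between these samples, which may be technical.

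Cholesterol is built from acetyl-CoA by way of mevalonate, the isoprenoid units and squalene, which is closed into lanosterol and then trimmed to cholesterol. When sterols run low in the membrane of the endoplasmic reticulum, SCAP carries the membrane-bound factor SREBP2, the product of Srebf2, to the Golgi, where the site-1 and site-2 proteases release its active part. That part binds sterol regulatory elements next to NF-Y and Sp1 sites and raises transcription of most enzymes of the pathway and of Insig1. INSIG1 holds SCAP back when sterols are plentiful, which closes a feedback loop. In the vessel wall, smooth muscle cells can take up and store cholesterol and become foam cells.

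Promoter sequences from RefSeq (mouse assembly GRCm38.p6) were matched for 5 of the 8 genes: Hmgcs1, Idi1, Cyp51, Insig1 and Srebf2. The 250 bases before the start were searched on both strands for the sterol regulatory element form TCACNCCAC, the NF-Y box CCAAT and the Sp1 box GGGCGG. All 5 promoters held an NF-Y box and an Sp1 box, while 33.8% and 32.7% of all 32851 promoters held them. The form TCACNCCAC was found in 1 of the 5, that of Hmgcs1, and in 1.05% of all promoters. It was in 0 of the 15 promoters of 12 other enzymes of the pathway. Of those 15 promoters, 11 (73.3%) held an NF-Y box and 12 (80%) an Sp1 box, so neither box was particular to the members. A looser form, TCACNNCA, which overlaps the first and was chosen after these sequences had been seen, was in 3 of the 5 (Hmgcs1, Srebf2 and Cyp51) and in 11.4% of all promoters. Of the 15 promoters of the other enzymes, 6 (40%) held this looser form. A match is a run of letters and not a measured binding site. The sequences below are shown because Cyp51, Insig1 and Srebf2 are the measured genes with a promoter sequence, and Hsd17b7, another enzyme of the pathway, had the largest rise in it. They run 5′ to 3′ on the gene's strand and end before the annotated gene. Capitals mark the NF-Y box, the Sp1 box and the looser sterol regulatory element form, or their reverse complements. The stretches are chr5:4104714-4104840 on the minus strand for Cyp51, chr15:82147041-82147248 on the plus strand for Srebf2, chr5:28071175-28071299 on the plus strand for Insig1 and chr1:169969243-169969440 on the minus strand for Hsd17b7.
Cyp51: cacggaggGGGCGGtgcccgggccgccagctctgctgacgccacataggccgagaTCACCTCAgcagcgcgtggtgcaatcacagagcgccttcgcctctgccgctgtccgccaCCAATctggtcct
Srebf2: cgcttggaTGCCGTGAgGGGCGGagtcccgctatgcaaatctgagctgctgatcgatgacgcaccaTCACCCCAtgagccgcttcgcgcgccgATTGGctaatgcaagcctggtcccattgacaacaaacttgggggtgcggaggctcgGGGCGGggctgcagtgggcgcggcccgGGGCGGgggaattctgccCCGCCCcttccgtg
Insig1: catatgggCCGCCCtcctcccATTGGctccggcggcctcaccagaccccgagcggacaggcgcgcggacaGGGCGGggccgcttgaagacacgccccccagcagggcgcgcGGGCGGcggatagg
Hsd17b7: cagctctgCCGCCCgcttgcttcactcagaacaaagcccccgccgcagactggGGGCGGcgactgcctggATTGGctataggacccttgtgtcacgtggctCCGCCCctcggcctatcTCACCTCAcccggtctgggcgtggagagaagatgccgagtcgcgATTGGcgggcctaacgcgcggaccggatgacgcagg
In Cyp51 the form TCACCTCA lies between the Sp1 box and the NF-Y box, and the same 8 letters occur in Hsd17b7. Of the other enzymes, Pmvk, Sc5d, Msmo1 and Dhcr7 also had the looser form. The log2 fold changes, moR-21 over control, were 0.04 for Pmvk, −0.06 for Sc5d and 0.34 for Msmo1, and Dhcr7 was not detected. Srebf2 holds TCACCCCA upstream of an NF-Y box. The looser form was not found in the 250 bases searched for Insig1.

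The table gives the non-normalized intensity of 25697 probes on each array. After quantile normalization over all 8 arrays and log2 transformation, treatments were compared with limma over 11651 probes (8727 genes), those detected at p under 0.01 by 1 or more of the arrays. A probe was called changed when the fold change was over 1.3 in either direction and the Benjamini-Hochberg adjusted p was under 0.002, and the brightest detected probe stood for a gene. Array medians ran from 102 to 109 intensity units, and the weakest intensity that counted as detected was between 111 and 118. Of 8 smooth muscle markers, 7 had a probe and 5 were tested: Acta2, smooth muscle actin, was bright, Tagln lay near background, and Myh11 and Cnn1 were not detected on any array. The sample descriptions name the cells AoECs whereas their source names smooth muscle cells. Of 8 endothelial markers, 1 (Vwf) was detected, near background, and Pecam1, Cdh5, Kdr and Tek were not.

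Sqle and Cyp51 were higher in moR-21-treated cells, and they were the only members called changed. Of the 5 member genes tested, 2 were called higher and 0 lower, against 3.41% of the 8727 genes called higher and 4.38% called lower. The members were chosen with earlier results of these data known, so their counts are descriptions and no test of the list. At an unadjusted p under 0.05, 4 members were higher and 0 lower, Srebf2 among them, against 23.4% of all genes higher and 21.1% lower. The 3 moR-21 samples lay above all 3 control samples in 4 of the 5 members, Sqle, Cyp51, Insig1 and Srebf2, and below them in 0. Such a separation was found in 24.4% of all genes upward and in 21.9% downward. A member separated in this way has a two-sided exact permutation p of 0.1, the smallest that 3 samples against 3 can give. The median log2 fold change of the 5 members was 0.31, and that of all genes tested was 0.0056.

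**Figure D1:**
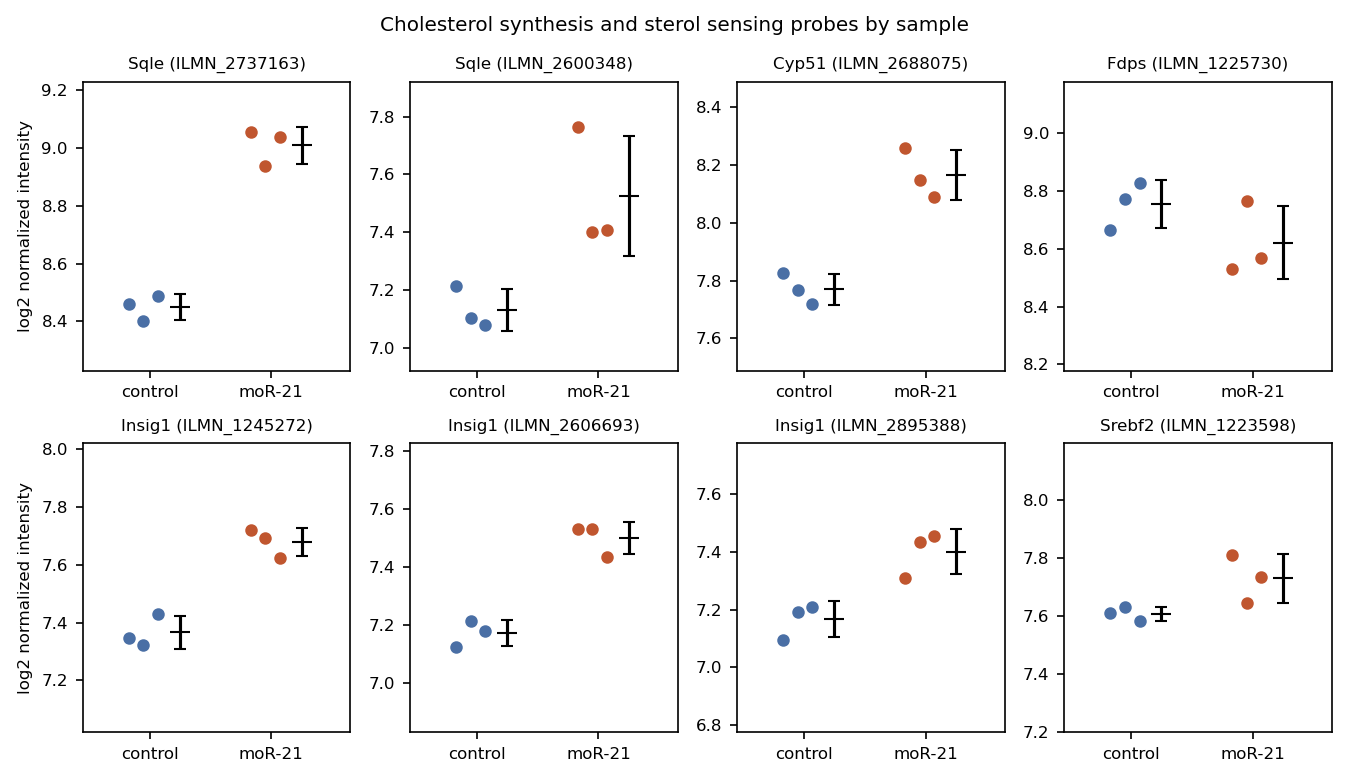
Log2 normalized intensity of the 8 detected member probes in the 3 control samples (blue) and the 3 moR-21 samples (orange), in sample order from left to right; the black bar gives the mean and SD (n = 3). Each panel spans 1 log2 unit. The groups do not overlap except for Fdps, where moR-21 sample 2 lies among the controls.

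Sqle encodes squalene epoxidase, a rate-limiting enzyme that adds oxygen to squalene, and the gene lies on chromosome 15 from 59315092 to 59331193 (GRCm38.p6). At its brighter probe (ILMN_2737163) the log2 signal was 8.46, 8.40 and 8.49 in control samples 1, 2 and 3 and 9.06, 8.94 and 9.04 in the moR-21 samples. Every moR-21 sample lay well above every control sample, and the groups were tight, at 8.45 ± 0.044 (SD, n = 3) and 9.01 ± 0.064 (SD, n = 3). This is a fold change of 1.47 (log2 fold change 0.56 ± 0.050 SE, 95% confidence interval 0.45 to 0.66), with a limma adjusted p of 1.25e-06. At the dimmer probe (ILMN_2600348) the log2 signal was 7.21, 7.11 and 7.08 in control samples and 7.76, 7.40 and 7.41 in moR-21 samples. The dimmer probe moved the same way, with moR-21 sample 1 higher than the other two. It passed both cutoffs narrowly, with a log2 fold change of 0.39, a standard error of 0.081 and a limma adjusted p of 0.00179. Over single probes, 3.12% were called higher.

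Cyp51 encodes lanosterol 14-alpha-demethylase, which removes the first of the extra methyl groups of lanosterol, and the gene lies on chromosome 5 from 4080674 to 4104697. The log2 signal of its single probe was 7.82, 7.77 and 7.72 in control samples and 8.26, 8.15 and 8.09 in moR-21 samples. The groups were apart by several times their spread, at 7.77 ± 0.053 (SD, n = 3) and 8.16 ± 0.085 (SD, n = 3). Between them lay a fold change of 1.31, close to the cutoff of 1.3 (log2 fold change 0.39 ± 0.053 SE, 95% confidence interval 0.28 to 0.51), with a limma adjusted p of 6.05e-05. Without control sample 3 it was 0.37 and without moR-21 sample 1 it was 0.35, in both cases under the fold-change cutoff and so not called. The promoter of Cyp51 is printed above, and whether its sites bear on this signal was not tested.

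Insig1, the sterol sensor that retains SCAP, had a higher signal in moR-21 samples at all 3 of its detected probes but stayed under the fold-change cutoff. The gene lies on chromosome 5 from 28071412 to 28078662. At the brightest probe (ILMN_1245272) the log2 signal was 7.35, 7.32 and 7.43 in control samples and 7.72, 7.69 and 7.62 in moR-21 samples. The lowest moR-21 sample was above the highest control sample. Insig1 thus had a fold change of 1.24 (log2 fold change 0.31 ± 0.049 SE, 95% confidence interval 0.21 to 0.42), with a limma adjusted p of 2.17e-04. The dimmer probes ILMN_2606693 and ILMN_2895388 gave 0.33 and 0.23, with the groups apart at each. At ILMN_2895388, however, the A and B arrays of moR-21 sample 3 read 7.33 and 7.58, about as far apart as the groups. A further probe, ILMN_2620965, was not detected on any array and was not tested. Insig1 was dim, between 152 and 216 intensity units at its brightest probe. With normexp background correction the log2 fold change of the brightest probe was 0.57 (limma adjusted p = 0.00134) and the gene was called higher.

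Srebf2, which encodes SREBP2, lies on chromosome 15 from 82147269 to 82205379. The log2 signal of its probe was 7.61, 7.63 and 7.58 in control samples and 7.81, 7.64 and 7.74 in moR-21 samples. The groups did not overlap, but moR-21 sample 2 lay only just above control sample 2. Srebf2 was not called, at a log2 fold change of 0.12 ± 0.051 (SE) with a 95% confidence interval of 0.012 to 0.23 and a limma adjusted p of 0.0828.

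Fdps, the synthase of farnesyl diphosphate, the last intermediate shared by sterols and the other isoprenoids, was the only tested member with a negative log2 fold change. The gene lies on chromosome 3 from 89093588 to 89101967. The log2 signal of its probe was 8.66, 8.77 and 8.83 in control samples and 8.53, 8.76 and 8.57 in moR-21 samples. Samples 1 and 3 of the moR-21 group were below all controls, and sample 2 was among them. Fdps was not called, at a log2 fold change of −0.13 ± 0.064 (SE) with a 95% confidence interval of −0.27 to 0.0032 and a limma adjusted p of 0.127. The interval leaves out a rise of the size seen in Sqle or Cyp51.

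Idi1, which encodes the isomerase of isopentenyl diphosphate, lies on chromosome 13 from 8885606 to 8892396. Its single probe read between 99.6 and 106 intensity units, detection p-values were 0.0464 or more, and it was detected on 0 of the 8 arrays. It was therefore not tested, and a difference in Idi1 was not detectable on these arrays.

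The other enzymes of the pathway were read from a list of 14 symbols. Of these, 12 had a probe and 11 were detected. Of the 11, 9 had a positive log2 fold change and 2 a negative one, against 51.8% of all genes tested with a positive one. Limma called 1 higher and 0 lower, against 3.41% and 4.38% of all genes, and the median was 0.13. At an adjusted p under 0.05, with no cutoff on fold change, 6 were higher and 0 lower, against 18.8% of all genes higher and 17.3% lower. The gene called higher was Hsd17b7, a 3-ketosteroid reductase that acts after Cyp51 in removing methyl groups. Its log2 signal was 7.63, 7.53 and 7.53 in control samples and 8.35, 8.17 and 8.27 in moR-21 samples. These groups were far apart for their spread. Hsd17b7 had a fold change of 1.62, more than that of any member (log2 fold change 0.70 ± 0.054 SE, 95% confidence interval 0.58 to 0.81), with a limma adjusted p of 3.37e-07. The gene lies on chromosome 1 from 169949535 to 169969242.

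**Figure D2:**
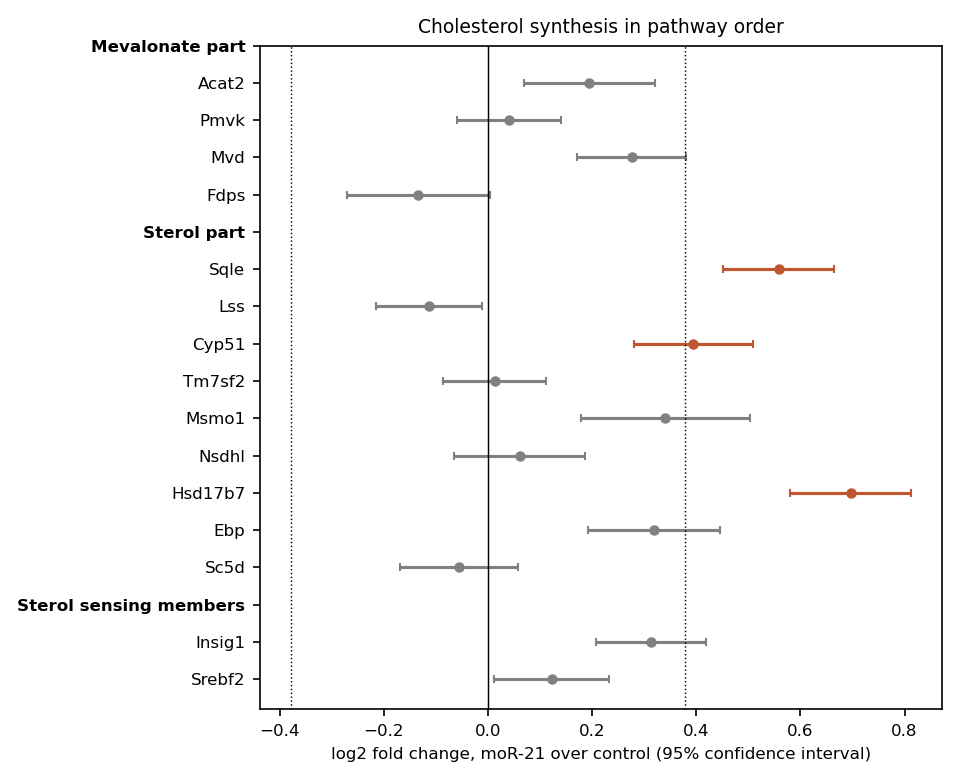
Log2 fold change (moR-21 over control) with its 95% confidence interval for detected enzymes, in the order of the pathway, and for Insig1 and Srebf2 below them; dotted lines mark a fold change of 1.3 and orange marks a call. Hsd17b7, Sqle and Cyp51 are called, and Fdps, Lss and Sc5d lie below 0.

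Values differed along the pathway. In the sterol part, the C4-methyl oxidase Msmo1 (printed on the array as Sc4mol) and the isomerase Ebp had log2 fold changes of 0.34 (limma adjusted p = 0.0029) and 0.32 (limma adjusted p = 8.08e-04), short of a call. In the mevalonate part, Mvd, the decarboxylase that makes isopentenyl diphosphate, had 0.28, and Acat2, the thiolase of the first step, had 0.19. The values of Pmvk, Nsdhl and Tm7sf2 were between 0.013 and 0.061 at the brightest probe, with intervals that include 0. The dimmer Nsdhl probes ILMN_2725402 and ILMN_2594521 had 0.14 (95% confidence interval 0.044 to 0.24) and 0.13 (95% confidence interval 0.021 to 0.25), and neither was called. Lss, the cyclase that sits between Sqle and Cyp51 and makes lanosterol, was lower in each of the 3 moR-21 samples, with a log2 fold change of −0.11 (95% confidence interval −0.21 to −0.012, limma adjusted p = 0.0817), and was not called. Its log2 signal was 6.94, 6.93 and 6.93 in control samples and 6.75, 6.87 and 6.84 in moR-21 samples, near background. Dhcr7, the last reductase, was detected on 0 arrays, and Mvk was not analysed here.

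Among the genes that release SREBP2 from its membrane, 8 were listed and 6 detected. Limma called 0 higher and 2 lower, against 3.41% and 4.38% of all genes. The counts were the same at a limma adjusted p under 0.05, against 18.8% of all genes higher and 17.3% lower. Mbtps1 encodes the site-1 protease, which makes the first cut in SREBP2. Its log2 signal at the brightest probe was 8.49, 8.65 and 8.51 in control samples and 8.16, 8.26 and 8.05 in moR-21 samples, with no overlap. Mbtps1 thus had a log2 fold change of −0.40 ± 0.061 (SE), with a limma adjusted p of 1.88e-04. A dimmer probe was also called lower (−0.41), and another was not (−0.24). Without control sample 2 the brightest probe had −0.35 and without moR-21 sample 3 it had −0.34, and neither was called. Syvn1, the ubiquitin ligase HRD1 of the endoplasmic reticulum, had −0.38 (limma adjusted p = 7.08e-05), and it was not called without control sample 1 (−0.36), control sample 2 (−0.36) or moR-21 sample 2 (−0.35). Scap, the carrier of SREBP2, had −0.07 (95% confidence interval −0.17 to 0.03), Mbtps2 had −0.03 and Insig2 −0.02. The 95% confidence interval of Insig2, the paralog of Insig1, was −0.13 to 0.09. Srebf1 was detected on 0 arrays at either of its 2 probes.

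Of 12 listed genes of sterol uptake and trafficking, 7 were detected. Limma called 0 higher and 1 lower, against 3.41% and 4.38% of all genes. At a limma adjusted p under 0.05, 2 were higher and 1 lower, against 18.8% and 17.3% of all genes. Vldlr, the VLDL receptor, was the highest of the list at a log2 fold change of 0.34 at its brightest probe (fold change 1.26, limma adjusted p = 6.73e-05), which was not called, while 2 dimmer probes were called higher, at 0.50 and 0.38. Stard4, a carrier of free sterol between membranes, had 0.30 (fold change 1.23, limma adjusted p = 3.60e-04) and was not called. Lipa (printed as Lip1), the lysosomal acid lipase that frees cholesterol from lipoprotein esters, was called lower. Its log2 signal was 7.84, 8.13 and 7.89 in control samples and 7.48, 7.41 and 7.61 in moR-21 samples. All moR-21 samples were below the controls, at a log2 fold change of −0.45 ± 0.072 (SE) and a limma adjusted p of 2.38e-04, and without control sample 2, the highest, it was −0.37 and not called.

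Genes of sterol efflux and storage had mostly negative values. Of 8 listed, 6 were detected, 5 with a negative log2 fold change, whereas 51.8% of all genes tested had a positive one. This was not particular to efflux and storage. Negative values were found in 6 of 6 detected genes of SREBP2 release and 3 of 7 of uptake and trafficking. They were also found in 4 of 5 of the isoprenoid branch and 6 of 10 of fatty acid synthesis. Limma called 0 higher and 1 lower, against 3.41% and 4.38% of all genes. At a limma adjusted p under 0.05, 0 were higher and 4 lower, against 18.8% and 17.3% of all genes. The gene called lower was Apoe, the apolipoprotein that accepts cholesterol at the cell surface, with a log2 signal of 7.86, 7.85 and 7.82 in control samples and 7.37, 7.53 and 7.46 in moR-21 samples. The groups did not overlap, at a log2 fold change of −0.39 ± 0.051 (SE) and a limma adjusted p of 4.49e-05, and without moR-21 sample 1 it was −0.35 and not called. The oxysterol receptors Nr1h3 and Nr1h2 had −0.20 and −0.15, and Soat1, which makes cholesterol esters, had −0.19, all uncalled. Abca1 and Abcg1, the sterol exporters, were detected on 0 arrays.

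**Figure D3:**
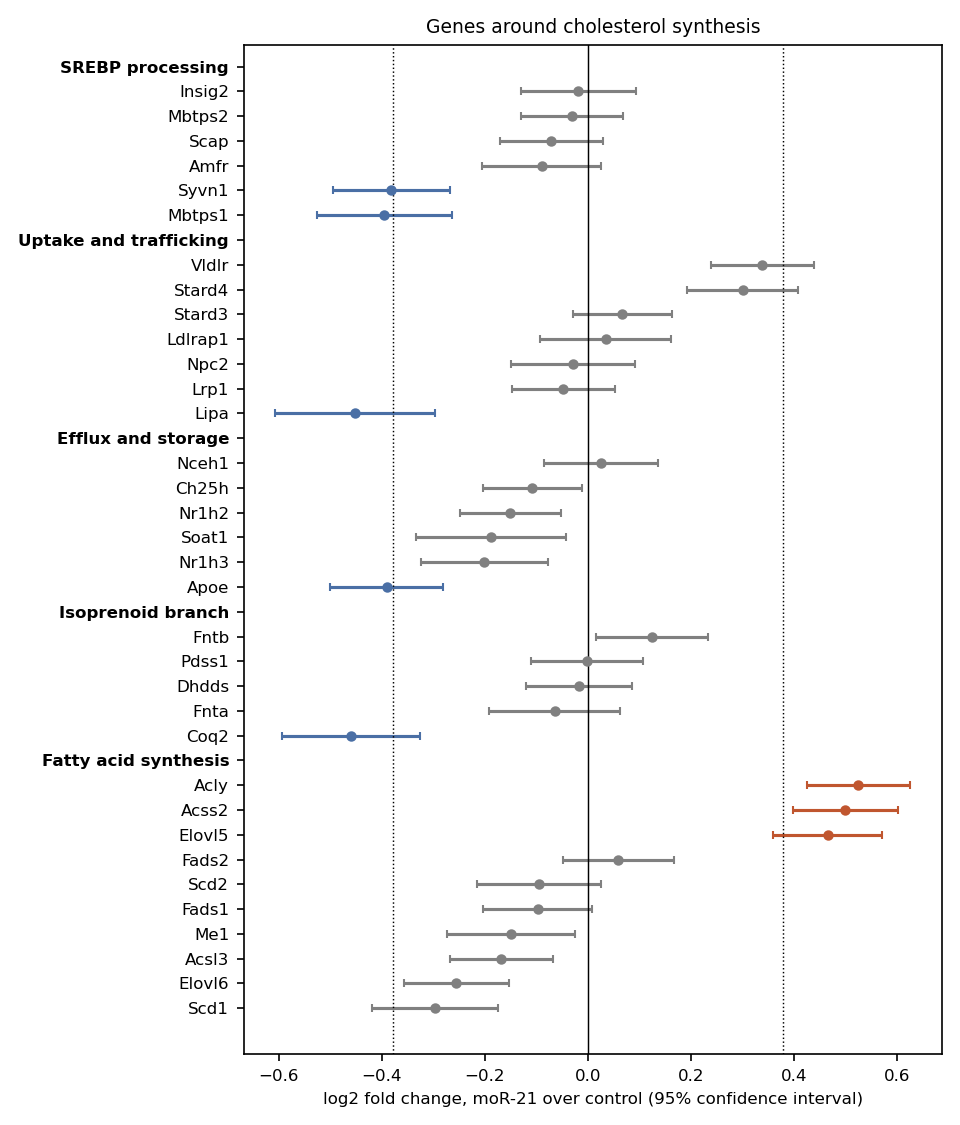
Log2 fold change (moR-21 over control) with its 95% confidence interval for the detected genes of 5 related lists at the brightest probe; dotted lines mark a fold change of 1.3, orange a call upward and blue a call downward. The 3 calls upward are all in fatty acid synthesis, and the 5 calls downward lie in the other 4 lists.

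The branches that draw on the same precursors differed from gene to gene. In fatty acid synthesis, 10 of 12 listed genes were detected, with 3 called higher and 0 lower and a median of −0.10. Over all genes, 3.41% were called higher and 4.38% lower. At a limma adjusted p under 0.05, 3 of the list were higher and 3 lower, against 18.8% and 17.3% of all genes. The genes called higher supply and extend acyl chains: Acly, which makes cytosolic acetyl-CoA from citrate (log2 fold change 0.53, limma adjusted p = 1.31e-06), Acss2, which makes it from acetate (0.50), and the elongase Elovl5 (0.47). Scd1 and Elovl6 had −0.30 and −0.26 and were not called, although Elovl6 was called lower with normexp background correction (−0.65), and Fasn, the fatty acid synthase, was detected on 0 arrays. Of the isoprenoid branch, 5 of 8 listed genes were detected, and Coq2, which attaches the isoprenoid tail of coenzyme Q, was called lower at −0.46 (limma adjusted p = 5.96e-05). Coq2 was the 1 gene of this branch called lower, with 0 called higher. The same counts held at a limma adjusted p under 0.05.

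With normexp correction in place of none, the log2 fold change of Sqle went from 0.56 to 0.70, that of Cyp51 from 0.39 to 0.59 and that of Insig1 from 0.31 to 0.57, while Fdps went from −0.13 to −0.17. The number of members called higher then rose to 3, Sqle, Cyp51 and Insig1. The dimmer probe of Sqle went to 0.81, but with a standard error of 0.17 and a limma adjusted p of 0.0069 it was no longer called. Hsd17b7 went to 1.07, and Lss to −0.39 (limma adjusted p = 0.026).

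**Figure D4:**
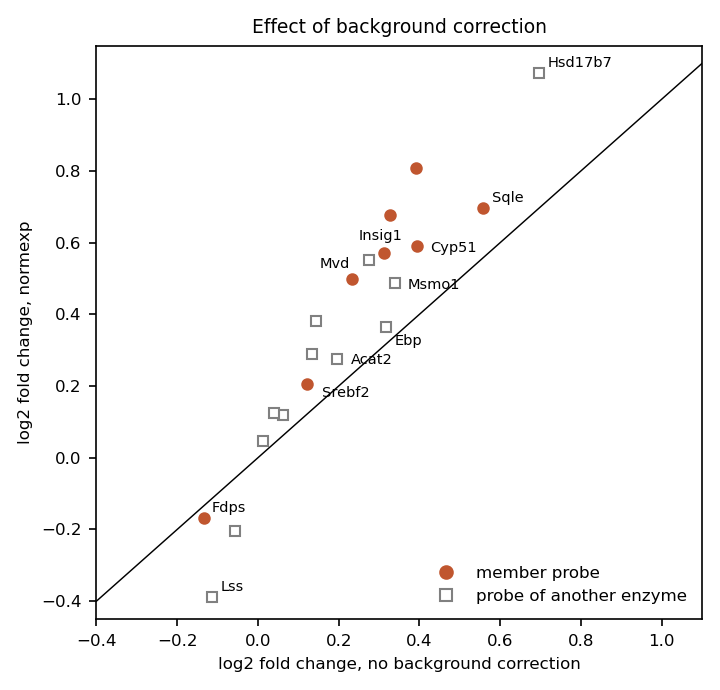
Log2 fold change (moR-21 over control) with normexp background correction against that without correction, for the detected probes of the members (orange) and of other enzymes (open squares); the line marks equal values and names stand at the brightest probe of a gene. Hsd17b7, Sqle, Cyp51 and Insig1 lie above the line, and Fdps and Lss, with values below 0, lie below it.

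Averaged over the 5 tested members, each centred on its own mean, the log2 signal was −0.13, −0.14 and −0.11 in control samples and 0.16, 0.12 and 0.10 in moR-21 samples. The genes outside the lists whose signal followed this course most closely over the 6 samples were Vps16 (Pearson r = 0.998, log2 fold change 0.40), Zfp644 (r = 0.998, 0.26), Ldha (r = 0.998, 0.56), Dhrs1 (r = 0.998, 0.32) and Msto1 (r = 0.997, 0.14). These correlations are descriptions over 6 samples in 2 groups and were the highest among the genes tested.

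Markers of other cell types were measured on the same arrays. Of 6 mesothelial markers, 2 were tested and Msln, Krt8 and Upk1b were not detected. Their summed normalized intensity was between 771 and 780 in control samples and between 402 and 416 in moR-21 samples, and the log2 fold change of Upk3b was −1.24. Of 7 macrophage markers, 3 were tested, with a summed intensity between 1622 and 1688 in control samples and between 1465 and 1498 in moR-21 samples, and Ptprc, Adgre1 and Itgam were not detected. The 3 tested markers went different ways: Lyz2, a lysozyme, was called higher (log2 fold change 0.48, limma adjusted p = 1.79e-06), Cd14 had −0.27 and was not called, and Csf1r had −0.01. The summed intensity of the 5 smooth muscle markers tested was between 9953 and 10330 in control samples and between 12700 and 13550 in moR-21 samples, with Acta2 called higher (log2 fold change 0.40). Acta2 made up most of this sum, and Des, the muscle filament desmin, was lower in all 3 moR-21 samples (log2 fold change −0.38, limma adjusted p = 8.60e-05), just short of the fold-change cutoff. The dimmer Acta2 probes were also called higher, at 0.81, 0.64 and 0.73. In bulk RNA fewer cells of a type and less RNA per cell cannot be told apart. The part of these markers in the changes of the member genes was not tested.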

How the data were processed

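RNA of 6 VSMC samples was measured on 8 Illumina mouse BeadChip arrays. The authors deposited a linear probe intensity for each array, not normalized, and beside it a deposited detection p-value. How these values were summarized is not given in the sources used here beyond the name of the BeadStudio software. All measured columns were assigned to a sample by name, and 0 had no sample. The smallest intensity per array was between 83.7 and 87.7, so background had not been subtracted, which shrinks the fold changes of dim probes. Intensities were quantile normalized over 8 arrays and log2 transformed, repeat arrays averaged and treatments compared with limma 3.58.1 (lmFit, eBayes) in R 4.3.3, without covariates, with Benjamini-Hochberg adjustment over 11651 probes. Cutoffs were those of the study. The number of samples, 3 in each group, limits the precision. Old symbols were matched through RefSeq synonyms. The fit was tested on simulated data.

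Some listed genes, counted in their lists, are not reported here by name or drawn. The members and gene lists were chosen with earlier results of these data known. All members are named, with the called genes of the related lists, a few fixed pathway genes, uncalled genes next to them chosen after their values were seen, and the 5 genes most correlated with the member mean. Alternatives covered background correction (limma nec, offset 16), scaling, filters, repeat arrays, variance model, replicate number, left-out samples, cutoffs and probe choice. Figures used Python 3.11.15 and matplotlib 3.10.9.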

Additional observations from a re-analysis of the deposited data

How the results depend on the processing

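Sqle kept its positive direction in all 19 settings and its call in 18, and Cyp51 kept its direction in 19 and its call in 15. The number of members called higher, 2 in the report, was 1 when all 8 arrays were fitted with the sample as a random block, where Cyp51 had 0.37, and 0 at a fold change over 1.5, and between 1 and 2 when single samples were dropped. The number of members called lower was 0 in every setting. The members' median log2 fold change of 0.313 was 0.572 with normexp correction, between 0.291 and 0.344 with single samples left out, and 0.217 without a detection filter, where Idi1 joins the median. The count of other enzymes called higher was 2 with array B alone, where Ebp was added. In the 5 related lists, with 6, 7, 6, 5 and 10 genes tested, 3 genes were called higher and 5 lower. Over all genes tested, 3.41% were called higher and 4.38% lower. At a fold change over 1.5 both counts of the related lists were 0. With the mean of detected probes they were 4 higher and 4 lower. The count called lower was 2 with normexp, 3 with array B alone (without Syvn1 and Lipa), and between 2 and 5 with single samples left out, the lowest without control sample 2. With normexp, Mbtps1 (−0.53), Syvn1 (−0.40), Lipa (−0.745) and Coq2 (−0.57) had log2 fold changes at least as far from 0 as without it, but adjusted p-values between 0.00252 and 0.00481, over the cutoff, while Apoe stayed called and Elovl6 (−0.65, adjusted p = 0.0014) was added. Over all genes, 298 were called higher and 382 lower, and 70 and 147 at a fold change over 1.5. None of the tested members, Hsd17b7, Lss, Scap and the called genes of the related lists changed sign in any of the 19 settings. Of the uncalled genes near 0, the Insig2 log2 fold change was positive in 5 settings (0.00125 to 0.022) and the Pmvk log2 fold change was −0.0053 with array B alone, each of the opposite sign. Whether the replicate numbers pair the samples is not stated and was not tested. In deviations from the group mean, same-numbered samples had correlations of 0.187, 0.0441 and 0.0597. Differently numbered samples had correlations from −0.129 to 0.0693. With the replicate number as a replicate block 2 members were still called higher. The standard error then went from 0.0639 to 0.0538 for Fdps and from 0.0492 to 0.0521 for Insig1. Signal over background limits the reading of Idi1, Dhcr7 and Srebf1.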
